A study of Mus musculus with 9 samples.

Results

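Mouse embryonic fibroblasts, connective tissue cells grown from embryos, that were exposed for 6 days to TP-064, a small-molecule inhibitor of the arginine methyltransferase CARM1, were compared with fibroblasts that received no treatment. The comparison takes 6 of the 9 libraries of the series, 3 labelled CARM1i (1 uM TP-064) and 3 labelled WT (untreated), and every gene whose mean normalized read count over the 9 libraries was at least 10, which held for 14560 of 16428 genes. All groups carry the same alleles, a floxed Carm1 gene (CARM1f/f) and the estrogen receptor-linked Cre recombinase ER-Cre, so the WT cells are floxed cells with an intact gene. The remaining 3 libraries, labelled KO, came from cells given 2 uM 4-OHT (4-hydroxytamoxifen), which activates the recombinase, for 6 days. Their values are given beside those of the inhibitor. No group is labelled as vehicle, so the inhibitor and anything it was dissolved in cannot be told apart. The labels do not say whether the 3 libraries of a group came from separate cultures or animals, so the p-values cover the spread among the libraries at hand, and that spread may be technical.

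CARM1, also called PRMT4, transfers methyl groups to specific arginines of histone H3 and of coactivators such as CREBBP, EP300 and the NCOA family, and of splicing and RNA-binding proteins. It is recruited to promoters and enhancers by nuclear receptors and other transcription factors. An inhibitor blocks this activity but leaves the protein in place, while a deletion removes the protein with any other function it has. The study asked what loss of CARM1 activity does to gene expression.

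The libraries held 28657018 to 35842771 recovered reads, and the most abundant gene took 1.53 to 1.94% of them. In a principal component analysis of log values, on the first component (42.7% of the variance), the CARM1i libraries lay between the other groups, at -5.84 to 2.27 against -25.4 to -22.0 for WT and 25.2 to 27.6 for KO. On the second (10.6%) they stood apart from both, at -15.9 to -12.3 against 5.14 to 10.7 and 5.37 to 8.10. CARM1i replicate 3 stood apart from the other CARM1i libraries on the third (9.58%), at 19.5 against -11.0 and -11.7, and results that rest on it are given with and without it. Of the fibroblast markers, 11 of 12 were tested, and Col1a1, Vim and Pdgfra had means of 17084 ± 2029.8, 69039 ± 1020 and 35939.6 ± 2532 normalized read counts (SD, n = 3) in the CARM1i libraries. Of the 17 myeloid markers 6 were tested, and the defining markers Ptprc, Adgre1 and Itgam were not analysed here.

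Carm1 itself (ENSMUSG00000032185.15; mm10, chromosome 9, 21546894 to 21592623) measured 1079, 1143 and 1091 in the WT libraries and 1112, 1072 and 986 in the CARM1i libraries, in normalized read counts of replicates 1 to 3. The log2 fold change of CARM1i against WT was -0.065 ± 0.06 (estimate ± SE from limma, adjusted p = 0.496), and later values follow the same order and form. The groups overlapped, and the message of the target did not change past the threshold. The KO libraries held 794, 711 and 769.8. The message level says nothing of the activity of the enzyme. None of the 8 tested arginine methyltransferase genes was called in limma, edgeR or DESeq2, and none had an unadjusted p under 0.05. Their log2 fold changes ran from -0.10 to 0.038, and Prmt1, which makes most of the asymmetric dimethylarginine of the cell, stood at -0.08 ± 0.04.

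After TP-064, 2784 of the 14560 genes (19.1%) differed from WT at an adjusted p under 0.05 in limma, the model used for every adjusted p given here. Of these, 1533 (10.5%) were higher and 1251 (8.59%) were lower. Most of the differences were small. The median log2 fold change was 0.23 among genes called higher and -0.27 among genes called lower, 130 and 151 genes changed at least 1.5-fold, and 33 and 26 at least 2-fold. The groups did not overlap for 4856 genes (33.4%), among them 2679 of the called ones. The share of called genes grew with the mean: 1.85% of genes with a mean of 10 to 100 were higher and 2.01% lower, against 26.3% and 13.1% of genes above 10000. The size of the change ran the other way, with a median absolute log2 fold change of 0.249 in the former and 0.0781 in the latter. By the annotation, 11.9% of protein-coding genes rose and 9.48% fell, while of 347 lincRNA genes 2.31% rose and 5.76% fell. The median absolute log2 fold change was 0.103 for protein-coding and 0.217 for lincRNA genes. The share of genes called lower was highest on chromosome 13 (17.3%), which holds the main cluster of replication-dependent histone genes.

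**Figure D1:**
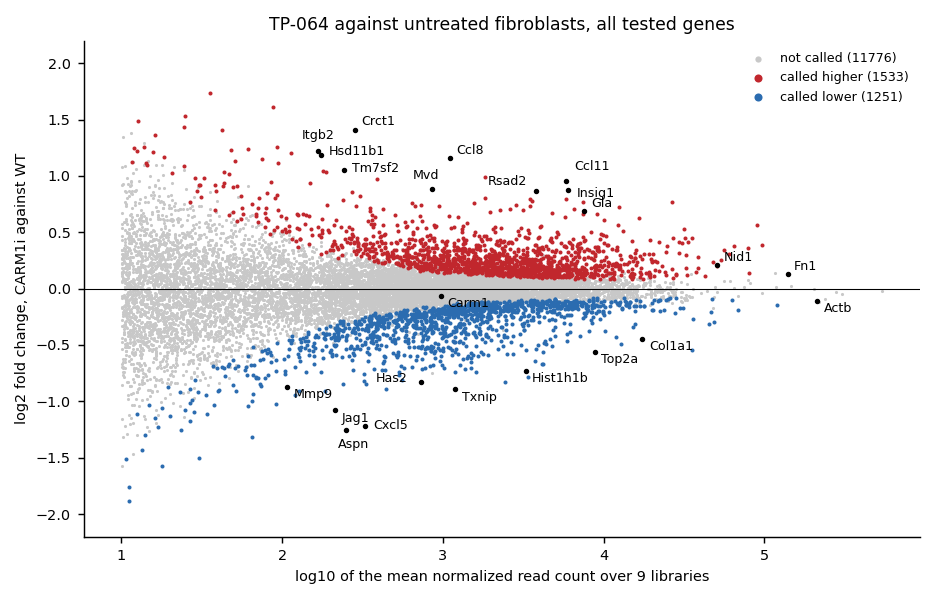
Change of every tested gene. The x axis is the log10 of the mean normalized read count over the 9 libraries, and the y axis is the log2 fold change of CARM1i against WT. Red points are the 1533 genes called higher, blue points the 1251 called lower and grey points the rest. The named genes are marked in black, and Carm1 lies among the grey points.

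The largest rise by the rule used for naming genes was that of Crct1, of the gene cluster for epidermal differentiation (ENSMUSG00000027913.5; mm10, chromosome 3, 93014205 to 93015687). It measured 83.5, 78.3 and 77.0 in the WT libraries and 197, 209.7 and 233 in the CARM1i libraries (log2 fold change 1.41 ± 0.10, adjusted p = 4.64e-08). The KO libraries were higher still, at 582, 534 and 561. Ivl, the cornified envelope protein involucrin of the same cluster on chromosome 3, went from 792, 773 and 820.1 in WT to 1560.1, 1558 and 1634 (0.99 ± 0.04, adjusted p = 1.25e-10). Of the 5 tested genes of this cluster Lce1g was also higher, at 0.64 ± 0.21, but its call ended without CARM1i replicate 3 (0.32, adjusted p = 0.184), without KO replicate 3 (0.0546) and without WT replicate 1, 2 or 3 (0.0692, 0.0593 and 0.118). S100a10, the annexin-binding member of the S100 family, fell by 0.14 ± 0.03. Other epidermal genes were below the minimum or not analysed here.

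Itgb2, the shared beta chain of the leukocyte integrins (chromosome 10, 77530252 to 77565708), held 74.1, 55.8 and 84.5 in the WT libraries and 156, 147 and 199.8 in the CARM1i libraries (log2 fold change 1.23 ± 0.16, adjusted p = 2.29e-05). Hsd11b1, which regenerates active glucocorticoid, rose 2.27-fold. It measured 72.4, 59.7 and 80.2 in the WT libraries and 194, 151 and 142 in the CARM1i libraries. For both genes the groups did not overlap, which the rule for naming the largest rises required. Aldh1l1, the formyltetrahydrofolate dehydrogenase of folate metabolism, went from 67.2, 89.1 and 82.3 to 163, 158 and 169.9, a 2.06-fold rise. Pappa2, a protease that cleaves insulin-like growth factor binding proteins, rose by 0.97 ± 0.13 on the log2 scale and Ttyh1, a membrane protein of the tweety family, by 0.94 ± 0.14. Nptx1, a neuronal pentraxin, measured 42.2, 28.4 and 34.2 in the WT libraries and 56.7, 69.6 and 134 in the CARM1i libraries. CARM1i replicate 3 was the highest of its group by far, and without it the log2 fold change of Nptx1 was 0.85 (adjusted p = 0.00461) in place of 1.21. The rule also asked for a mean of at least 100 over all libraries. The WT libraries of Crct1, Itgb2, Hsd11b1, Aldh1l1 and Nptx1 all lay below that level, so each gene passed through its other groups. Nptx1 passed only through its KO libraries. The filter thus favoured the place of these genes among the largest rises. Ifi207, an interferon-inducible gene whose reads may be shared with near-identical neighbours, stood at 1.03 ± 0.12.

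The largest fall was that of Aspn, the small proteoglycan asporin (chromosome 13, 49544443 to 49567565), which measured 359, 413 and 677 in the WT libraries and 246, 254 and 116 in the CARM1i libraries (log2 fold change -1.26 ± 0.26, adjusted p = 0.00228). WT replicate 3 and CARM1i replicate 3 were the extremes of their groups, and without the latter the log2 fold change was -0.89 (adjusted p = 0.00354). In limma without the intensity trend Aspn was not called (adjusted p = 0.0693). Jag1, a ligand of Notch receptors (chromosome 2, 137081456 to 137116644), fell to 47.0% of the WT mean, from 299, 317 and 368 to 167, 153 and 142 (adjusted p = 5.46e-06). The KO libraries held 183, 139 and 158, a level that overlapped with that of the inhibitor. Txnip, which restrains glucose uptake, held 1854, 1767 and 1813 in the WT libraries and 919, 1039 and 969 in the CARM1i libraries (log2 fold change -0.89 ± 0.05, adjusted p = 2.54e-09) and 810.4, 796 and 799 in KO. Has2, which makes hyaluronan, fell from 1066, 959 and 1048 to 530.5, 563 and 640.1, and the KO libraries (576, 568 and 593) overlapped with these. For Has2 the difference between the inhibitor and KO was -0.0067 ± 0.07 on the log2 scale (adjusted p = 0.962).

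Unc5c, a netrin receptor, held 142, 164 and 179 in the WT libraries and 76.9, 71.5 and 105 in the CARM1i libraries, and Mcam, an adhesion molecule, fell by 0.91 ± 0.18. Mmp9, a gelatinase, fell from 189, 175 and 161 to 84.0, 103 and 99.4, and Tll1, a tolloid-like protease that processes procollagen, fell by 0.83 ± 0.06. Rspo2, which amplifies Wnt signalling, measured 382, 316 and 397 in the WT libraries and 219.7, 200.1 and 185 in the CARM1i libraries (log2 fold change -0.85 ± 0.12, adjusted p = 4.69e-05). The adipokine gene C1qtnf3 fell by 0.89 ± 0.13 and Fam83d, a spindle protein, by 0.85 ± 0.09. In all of these the CARM1i and WT groups did not overlap, which the rule for naming the largest falls required.

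**Figure D2:**
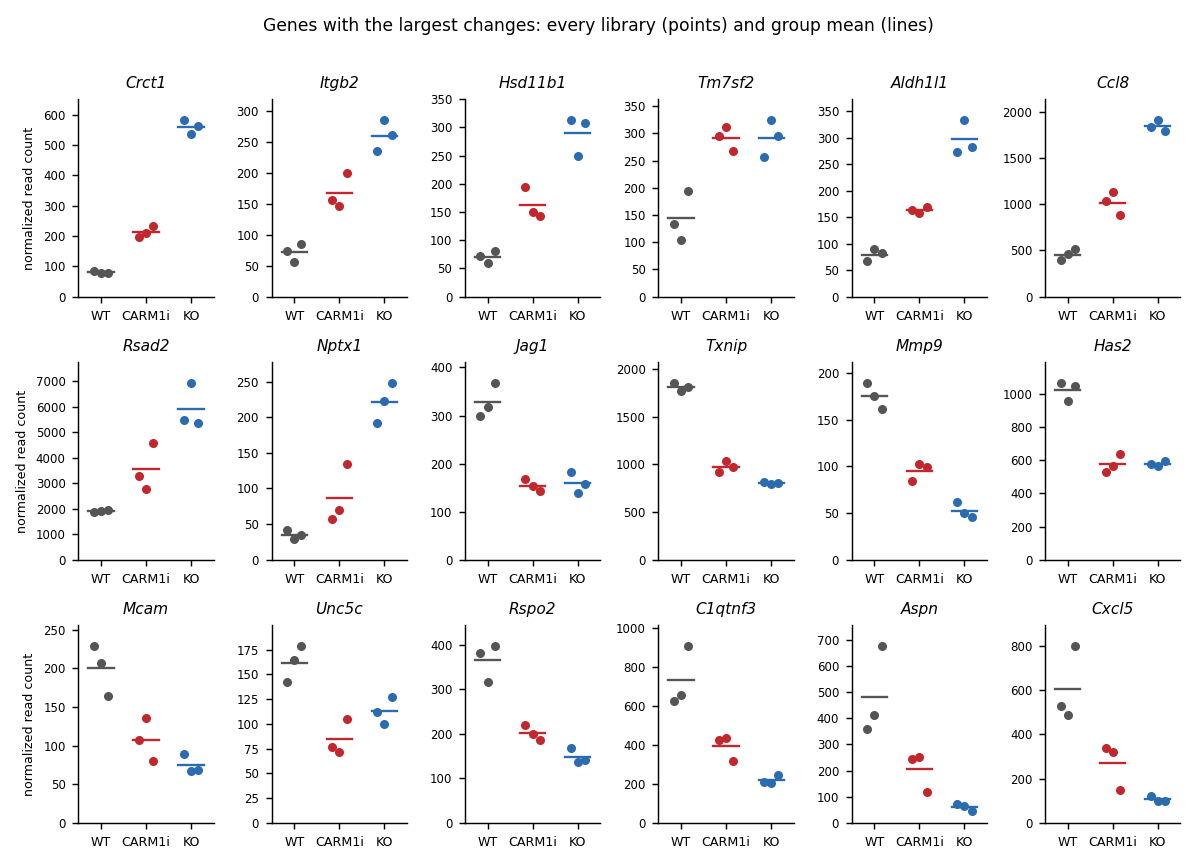
Normalized read counts of 18 genes with large changes in every library (points) and as group means (lines), with each y axis starting at 0. The first 8 genes rose in CARM1i and the last 10 fell. For Jag1, Has2 and Tm7sf2, among others, the CARM1i and KO libraries overlap, and for Nptx1, Aspn and Cxcl5 CARM1i replicate 3 lies nearer to KO than the other CARM1i libraries do.

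Cholesterol is built from acetyl-CoA by the mevalonate pathway, which ends in the cyclization to lanosterol, and lanosterol is then trimmed to cholesterol in the membrane of the endoplasmic reticulum. The SREBP transcription factors switch these enzymes on when membrane sterol is low, and INSIG proteins hold them back when it is high. After TP-064, 11 of 12 genes of the mevalonate arm and 8 of 9 of the lanosterol arm were higher and none was lower, beside 10.5% of all genes. Their median log2 fold changes were 0.60 and 0.64, against -0.0047 over all tested genes. The members not called were Ggps1, which makes geranylgeranyl diphosphate outside the sterol branch (0.11 ± 0.04), and Ebp, a sterol isomerase (0.16 ± 0.06). Ggps1 was called higher without CARM1i replicate 2 (adjusted p = 0.0203) and Ebp without WT replicate 1 (0.0481).

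Hmgcs1, which makes HMG-CoA at the head of the pathway, measured 5377, 5058 and 5872 in the WT libraries and 9767, 9392 and 8649 in the CARM1i libraries (log2 fold change 0.77 ± 0.05, adjusted p = 7.55e-09). All CARM1i libraries exceeded all WT libraries. Mvd, which yields isopentenyl diphosphate, rose 1.84-fold (from 565 ± 117 to 1033 ± 106, SD, n = 3). Idi1, its isomerase, rose by 0.74 ± 0.06, Lss, which closes the lanosterol rings, by 0.79 ± 0.05 and the squalene epoxidase gene Sqle by 0.55 ± 0.03. In the lanosterol arm Cyp51, the lanosterol demethylase, went from 5526, 5345 and 5885 to 9458, 9064 and 8034. Msmo1, the methylsterol monooxygenase, rose by 0.79 ± 0.03, Nsdhl by 0.64 ± 0.07 and Sc5d, a desaturase, by 0.46 ± 0.04. Tm7sf2, a sterol reductase, rose 2.08-fold, from 134, 104 and 195 to 295, 311 and 267, the highest change of the arm.

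Among the genes that control the pathway, 6 of 11 were higher and none lower, where 10.5% of all genes were higher and 8.59% lower. Insig1 measured 4012, 3869 and 4421 in the WT libraries and 7828, 7687 and 6996 in the CARM1i libraries (log2 fold change 0.87 ± 0.05, adjusted p = 2.54e-09). The sterol carrier gene Stard4 rose by 0.42 ± 0.04 and the SREBP escort gene Scap by 0.27 ± 0.03. Srebf2, the factor itself, stood at 0.16 ± 0.04 and Srebf1 at 0.037 ± 0.04 (adjusted p = 0.579). The call of Srebf2 ended without CARM1i replicate 2 (adjusted p = 0.0668) and without WT replicate 1 or 2 (0.0528 and 0.07). That of Mbtps2, a protease that releases SREBP (0.27 ± 0.07), ended without CARM1i replicate 1 (0.0514) and without WT replicate 1 (0.0651). Fatty acid synthesis shares these factors, and 9 of its 12 genes were higher, with none lower and a median of 0.26. Elovl6, an elongase, went from 1285, 1243 and 1427 to 1944, 1822 and 1828, the fatty acid synthase gene Fasn rose by 0.30 ± 0.03 and the desaturase genes Scd1 and Scd2 by 0.35 ± 0.04 and 0.31 ± 0.03. Acaca, the carboxylase at the head of the pathway, stood at 0.022 ± 0.03 (adjusted p = 0.706). Of 10 genes of sterol export and trafficking, 4 were higher, among them Npc1, which moves cholesterol out of lysosomes (0.44 ± 0.04), Npc2 (0.31 ± 0.03) and the lipoprotein gene Apoe (0.65 ± 0.10), and 1 was lower, the exporter gene Abcg1 (-0.90 ± 0.26, adjusted p = 0.0224). The call of Abcg1 ended without CARM1i replicate 1 or 2 (0.0923 and 0.0813), without WT replicate 1, 2 or 3 (0.0665, 0.0634 and 0.0602) and without the intensity trend of limma (0.0553). The exporter gene Abca1, a target of the sterol-sensing LXR receptors, stood at -0.15 ± 0.11 (adjusted p = 0.395).

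Promoters of the sterol list were read in RefSeq windows on GRCm38.p6 that run from 250 bases before a gene's start to 50 after it. The letters TCACNCCAC, a form of the sterol regulatory element, were searched on both strands. They occur in 1.24% of the 32851 windows and in 1 of the 24 sterol genes that have one, Hmgcs1, whose stretch is shown with the match in capitals. A match is a description of letters and not of binding.
Hmgcs1, chr13:119690174-119690262, plus strand: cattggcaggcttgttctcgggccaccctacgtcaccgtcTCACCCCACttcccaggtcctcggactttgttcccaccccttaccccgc

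The KO libraries also lay above WT for the sterol genes. The medians by library of the mevalonate arm, as log2 ratios to the WT mean, were 0.63, 0.60 and 0.55 in CARM1i and 0.44, 0.48 and 0.45 in KO, and those of the lanosterol arm were 0.73, 0.61 and 0.53 and 0.48, 0.49 and 0.54. Of the 12 genes of the mevalonate arm 4, and of the 9 of the lanosterol arm 1, lay above KO in the direct contrast and none below. Over all genes 1761 of 14560 lay above KO, a share that the lanosterol arm is near. In either direction 23.6% of all genes differed between CARM1i and KO. Hmgcs1 held 7738, 7773 and 7658 in KO (log2 difference 0.26 ± 0.05, adjusted p = 0.000563 for CARM1i minus KO) and Insig1 6506, 6071 and 6229 (log2 difference 0.26 ± 0.05, adjusted p = 0.000707).

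Dividing cells raise a set of genes for DNA replication in S phase and another for mitosis. The mitotic set is switched on late by the MuvB complex with B-MYB and FOXM1, which binds a short promoter element called CHR. All 16 genes of mitotic entry fell, with a median log2 fold change of -0.52 (-0.45 without CARM1i replicate 3). So did all 17 genes of kinesins and spindle (median -0.48) and all 14 genes of the kinetochore and its checkpoint (-0.50), beside 8.59% of all genes. When 1 of the 9 libraries was left out in turn, all entry and spindle genes were still called lower each time, and 12 to 14 kinetochore genes were. In bulk RNA, fewer cells in mitosis and less message per mitotic cell cannot be told apart.

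Top2a, the topoisomerase that untangles chromosomes, held 12881, 13252 and 12608 in the WT libraries and 8981, 8766 and 8509.8 in the CARM1i libraries (log2 fold change -0.56 ± 0.03, adjusted p = 5.08e-09). Mki67, the proliferation marker, held 5568, 5499.7 and 5565 in the WT libraries and 4068, 4096 and 3380.2 in the CARM1i libraries (log2 fold change -0.53 ± 0.05, adjusted p = 2.35e-06). No CARM1i library reached the WT range for either gene. Cdk1, the kinase that drives entry into mitosis, went from 6264, 6348 and 6105 to 4613, 4741 and 4384, and its cyclin partners Ccna2, Ccnb1 and Ccnb2 fell by 0.48 ± 0.04, 0.51 ± 0.05 and 0.42 ± 0.06 on the log2 scale. The kinesin genes Kif11, which separates the spindle poles, Kif15 and Kif23 fell by 0.58 ± 0.05, 0.68 ± 0.07 and 0.59 ± 0.06, and the spindle assembly genes Tpx2 and Prc1 by 0.41 ± 0.04 and 0.47 ± 0.04. At the kinetochore the checkpoint kinase gene Bub1 fell by 0.52 ± 0.05, the scaffold gene Knl1 by 0.54 ± 0.05 and Nuf2, of the complex that grips microtubules, by 0.57 ± 0.06. Of 11 condensin and cohesin genes 8 fell, beside 8.59% of all genes. The condensin genes Ncapd2 and Ncapg fell by 0.58 ± 0.04 and 0.52 ± 0.06, while the cohesin gene Smc1a (-0.055 ± 0.03) was not called.

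The letters TTTGAA (CHR) occur on either strand in 17.9% of all windows and in the windows of 14.4% of the 10296 tested genes that have one. Of 40 mitotic, spindle and kinetochore genes with a window, 28 hold them. Over all genes called lower the share was 22.1%, against 12.9% of those called higher and 13.8% of those not called. CCAAT boxes, whose letters are CCAAT, occur in 29 of the 40 and in 43.3% of tested genes with a window. Shown are stretches of called members that hold CHR before the start, those with the smallest adjusted p, with CHR and CCAAT on either strand in capitals. Each also holds a CCAAT box, which the selection did not require.
Top2a, chr11:99024190-99024252, minus strand: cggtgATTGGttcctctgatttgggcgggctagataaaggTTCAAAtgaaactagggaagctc
Prc1, chr7:80294406-80294475, plus strand: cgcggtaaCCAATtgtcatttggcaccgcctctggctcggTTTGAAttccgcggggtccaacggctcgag
Kif11, chr19:37376323-37376381, plus strand: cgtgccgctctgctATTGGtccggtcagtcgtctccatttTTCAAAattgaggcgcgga
Cdk1, chr10:69352913-69352967, minus strand: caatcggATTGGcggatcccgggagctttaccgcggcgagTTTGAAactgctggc

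The replication lists had smaller median changes. Their counts stand beside 8.59% of all genes called lower. Of 18 genes of the replication fork 17 fell (median -0.26), a count that was 10 without WT replicate 1 and 12 without CARM1i replicate 3. Rfc4, of the clamp loader, went from 417, 398 and 369.96 to 285, 291 and 258 (-0.51 ± 0.09), the primase gene Prim1 fell by 0.41 ± 0.07 and the flap endonuclease gene Fen1 by 0.30 ± 0.05. Of 17 licensing genes 9 fell (8 to 10 when 1 library was left out), with the helicase genes Mcm5 and Mcm6 at -0.34 ± 0.06 and -0.28 ± 0.04. Gmnn, geminin, which blocks a new round of licensing, fell by 0.47 ± 0.09, the largest fall of that list. Of 9 genes of deoxynucleotide supply 6 fell, with the thymidine kinase gene Tk1 at -0.58 ± 0.06 and the reductase genes Rrm1 and Rrm2 at -0.42 ± 0.04 and -0.41 ± 0.05. The E2F letters TTTCCCGC occur in 6 and TTTGGCGC in 6 of 34 replication genes with a promoter window, against 2.36% and 1.08% of tested genes with one.

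Among regulators upstream, 3 of 13 genes of the E2F and RB family fell, E2f7, Rbl1 and Tfdp1, at -0.49 ± 0.11, -0.39 ± 0.07 and -0.12 ± 0.03, beside 8.59% of all genes. E2f1 stood at 0.069 ± 0.05. Of 15 genes of G1 cyclins and CDK inhibitors 4 were lower (3 to 4 when 1 library was left out) and 1 was higher, Cdkn2a (0.16 ± 0.05), whose call ended without CARM1i replicate 2 or 3 and without WT replicate 1 or 3 (adjusted p = 0.0604 to 0.0998). The lower genes included Ccne2 (-0.40 ± 0.07), Cdk6 (-0.21 ± 0.04) and the inhibitor gene Cdkn1b (-0.26 ± 0.05). Cdkn1a, which encodes the p53-induced inhibitor p21, stood at -0.04 ± 0.05 (adjusted p = 0.605). Of 19 p53 targets 3 were higher and 3 lower, beside 10.5% and 8.59% of all genes. Mdm2, which restrains p53, stood at 0.22 ± 0.05, Trp53inp1 at 0.17 ± 0.04, Plk3 at 0.40 ± 0.04 and the death receptor gene Fas at -0.57 ± 0.11. The calls of Plk2 (-0.10 ± 0.03) and Eda2r (-0.12 ± 0.04) each ended without CARM1i replicate 1 or 2, WT replicate 1 or 2 and KO replicate 3, that of Plk2 also without KO replicate 2 and that of Eda2r without KO replicate 1. The adjusted p was then 0.0575 to 0.191 for Plk2 and 0.0523 to 0.19 for Eda2r, and the count of lower p53 targets ran from 1 to 4 and was 1 in edgeR and in DESeq2.

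Replication-dependent histone genes are expressed in S phase, and most of their transcripts end in a stem-loop without a poly(A) tail. A poly(A) library catches part of them, and near-identical copies can share reads, so single values are uncertain. All 17 listed and tested histone genes fell, with a median of -0.63 and a range of -0.91 to -0.37, beside 8.59% of all genes. The linker histone gene Hist1h1b held 5626, 5509.5 and 4977 in the WT libraries and 3043, 3541 and 3123 in the CARM1i libraries (log2 fold change -0.73 ± 0.06, adjusted p = 2.06e-07). Its KO libraries held 1283, 1113 and 1188, further from WT. Hist1h1a held 962, 972 and 859.7 in WT and 531, 583 and 476 in CARM1i. Hist1h2an (-0.91 ± 0.17) and Hist1h2ag (-0.82 ± 0.12), both of which encode H2A, were among the largest falls by the rule.

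Lysosomes break down macromolecules with acid hydrolases, and a proton pump of many subunits acidifies them. Their genes form a network with a shared promoter element, CLEAR, bound by TFEB and TFE3. After TP-064, 17 of 20 hydrolase genes were higher and none lower (median 0.23), and 17 of 19 proton pump and lysosome membrane genes were higher and none lower (median 0.25). Of all genes 10.5% were higher. Gla, alpha-galactosidase, held 4769, 4724 and 4859.7 in the WT libraries and 7739.5, 7496 and 7885 in the CARM1i libraries (log2 fold change 0.69 ± 0.03, adjusted p = 1.29e-10). Hexa, a hexosaminidase subunit, held 6679.6, 6619 and 7087 in the WT libraries and 10372, 10461 and 10237 in the CARM1i libraries (log2 fold change 0.61 ± 0.03, adjusted p = 1.26e-09). The groups did not overlap for either. Naglu, of heparan sulfate breakdown, rose by 0.54 ± 0.04. Of the pump, Atp6v1b2, a subunit of its catalytic head, rose by 0.45 ± 0.04, and Atp6v0a1, of its membrane part, went from 1234, 1254 and 1157 to 1619, 1684 and 1631. Manba, Arsb and Ids were the hydrolase genes not called, at -0.11 ± 0.06, -0.04 ± 0.08 and -0.025 ± 0.07.

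Of 10 lysosomal proteases 6 were higher, where 10.5% of all genes were called higher and 8.59% lower. Ctsb measured 25887, 25750 and 28031 in the WT libraries and 34872, 35886 and 37810 in the CARM1i libraries, and Ctsa, Ctsk and Ctsd rose by 0.51 ± 0.03, 0.44 ± 0.04 and 0.34 ± 0.03. Ctsc alone was called lower, at -0.56 ± 0.18, and its call ended without CARM1i replicate 3 (-0.27, adjusted p = 0.115) and without WT replicate 1, 2 or 3 (0.0584, 0.0605 and 0.121). Of 29 genes of autophagy and TFEB control 13 were higher and 1 was lower (Wipi1, -0.14 ± 0.04). Fnip2 and Flcn, of the folliculin complex that controls the site of TFEB, rose by 0.70 ± 0.04 and 0.34 ± 0.04, the ubiquitin-like gene Map1lc3b by 0.20 ± 0.04 and the autophagy receptor gene Sqstm1 by 0.20 ± 0.03. Tfeb (-0.15 ± 0.22, adjusted p = 0.7) and Tfe3 (0.055 ± 0.04, adjusted p = 0.422) were not called. The medians by library of the hydrolase list, as log2 ratios to the WT mean, were -0.024, -0.023 and 0.059 in WT, 0.24, 0.27 and 0.21 in CARM1i and 0.57, 0.56 and 0.60 in KO.

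The CLEAR letters TCACGTGA occur in 0.974% of all windows and in 2.17% of tested genes with a window. They occur in 9 of 64 hydrolase, cathepsin, pump and autophagy genes with one, and 8 of these were called. The share was 5.28% over genes called higher, 1.09% over those called lower and 1.83% over the rest. Of the called members that hold the letters before the start, those with the smallest adjusted p are shown, with the element in capitals. It stands at 2 places in the stretch of Gla.
Gla, chrX:134601153-134601240, minus strand: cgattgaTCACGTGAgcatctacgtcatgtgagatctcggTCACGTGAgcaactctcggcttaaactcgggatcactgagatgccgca
Ctsa, chr2:164833720-164833772, plus strand: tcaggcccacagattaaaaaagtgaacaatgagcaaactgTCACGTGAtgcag
Ctsd, chr7:142387879-142387966, minus strand: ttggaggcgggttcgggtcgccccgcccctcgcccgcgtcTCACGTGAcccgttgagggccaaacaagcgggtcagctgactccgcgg
Atp6v1a, chr16:44139344-44139431, minus strand: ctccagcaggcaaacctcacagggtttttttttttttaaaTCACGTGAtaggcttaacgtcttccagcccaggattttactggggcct

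Interferon-stimulated genes encode antiviral proteins and are switched on by STAT and IRF factors at the ISRE element. Of 29 such genes 25 were higher and none lower, with a median of 0.28, beside 10.5% of all genes called higher. Without CARM1i replicate 3 the count was 25 and the median 0.19. Rsad2, viperin, held 1866, 1891 and 1933 in the WT libraries and 3284, 2765 and 4556 in the CARM1i libraries (log2 fold change 0.87 ± 0.12, adjusted p = 5.47e-05), and its log2 fold change was 0.67 without CARM1i replicate 3. Ifit1, which binds foreign RNA ends, held 22225, 22299 and 23491 in the WT libraries and 30578, 26886 and 32603 in the CARM1i libraries (log2 fold change 0.40 ± 0.06, adjusted p = 4.59e-05). CARM1i replicate 3 was the highest library of its group for Rsad2, and every CARM1i library exceeded every WT library for both. Mx1 rose by 0.71 ± 0.09, Cmpk2 by 0.70 ± 0.09, Ifit2 by 0.57 ± 0.08 and Usp18, which dampens interferon receptors, by 0.31 ± 0.04. The medians of the list by library were 0.22, 0.16 and 0.43 in CARM1i and 0.49, 0.56 and 0.51 in KO.

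The interferon gene Ifnb1 measured 50.8, 44.0 and 77.0 in the WT libraries and 65.8, 63.9 and 116 in the CARM1i libraries (adjusted p = 0.159). None of the 10 genes of interferon, its receptors and their kinases was called in limma, edgeR or DESeq2, and 3 were higher at an unadjusted p under 0.05. In limma Ifnb1 was called higher without WT replicate 3 (adjusted p = 0.0408), and Irf1, an interferon-induced transcription factor (0.13 ± 0.05), without CARM1i replicate 1 (0.034). Of 12 antigen presentation genes 8 were higher (median 0.16), beside 10.5% of all genes. Tapbp, the chaperone that loads peptide onto class I molecules, rose by 0.31 ± 0.04, the light chain gene B2m by 0.26 ± 0.04 and the immunoproteasome gene Psmb10 by 0.24 ± 0.05. H2-K1, a class I heavy chain with near-identical relatives that can share its reads, stood at 0.27 ± 0.04.

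The ISRE letters (GAAA, any 2 bases and again GAAA, on both strands) occur in 3.44% of all windows and in 3.75% of tested genes with a window. They occur in 13 of 31 interferon-stimulated and antigen presentation genes with one, and all 13 of these were called higher. The share was 6.54% over all genes called higher and 3.58% over those called lower. Of the called members that hold the element before the start, those with the smallest adjusted p are shown, with matches on either strand in capitals. Ifit1 and Ifit3 hold it at separate places and Bst2 in overlapping copies.
Ifit1, chr19:34640764-34640853, plus strand: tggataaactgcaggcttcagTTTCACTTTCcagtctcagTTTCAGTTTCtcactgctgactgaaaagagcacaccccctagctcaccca
Rsad2, chr12:26456523-26456612, minus strand: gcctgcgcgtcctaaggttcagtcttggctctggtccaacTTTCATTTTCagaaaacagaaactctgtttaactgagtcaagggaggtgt
Ifit3, chr19:34583367-34583456, plus strand: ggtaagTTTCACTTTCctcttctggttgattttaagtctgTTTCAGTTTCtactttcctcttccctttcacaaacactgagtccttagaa
Bst2, chr8:71537547-71537636, minus strand: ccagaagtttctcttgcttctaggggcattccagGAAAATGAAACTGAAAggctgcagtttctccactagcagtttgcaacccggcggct

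Chemokines split. Of 15 tested, 6 were higher and 5 lower (3 to 5 when 1 library was left out), beside 10.5% and 8.59% of all genes. Ccl8, a monocyte attractant, held 393, 463 and 513 in the WT libraries and 1033, 1135 and 887 in the CARM1i libraries (log2 fold change 1.16 ± 0.09, adjusted p = 9.27e-08). Ccl11, eotaxin, held 3698, 3820.1 and 3839.6 in the WT libraries and 8372, 8109 and 5802 in the CARM1i libraries (log2 fold change 0.95 ± 0.09, adjusted p = 6.88e-07). CARM1i replicate 3 was the lowest CARM1i library for both. Ccl7 and Ccl2 rose by 0.33 ± 0.04 and 0.20 ± 0.04. Among the lower genes Cxcl5, a neutrophil attractant, fell from 528, 487 and 799.8 to 339, 322 and 149.6 (log2 fold change -1.21 ± 0.23, adjusted p = 0.0011), and without CARM1i replicate 3 its log2 fold change was -0.84 (adjusted p = 0.000409). Without the intensity trend of limma it was not called (0.0553). Cxcl1, which also attracts neutrophils, fell by 0.71 ± 0.12, and Cxcl12, which retains blood cells in tissue, fell by 0.56 ± 0.09. Of 14 NF-kB and cytokine genes 4 were higher (2 to 4 when 1 library was left out) and 2 lower. The alarmin gene Il33 rose by 0.68 ± 0.08 and its receptor gene Il1rl1 by 0.38 ± 0.04, while the inhibitors of NF-kB signalling Nfkbia and Tnfaip3 fell by 0.39 ± 0.04 and 0.36 ± 0.06.

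Of 21 NRF2 and antioxidant genes 13 were higher and 1 was lower (median 0.16), beside 10.5% and 8.59% of all genes. Hmox1, the heme oxygenase, held 5978, 5616 and 5957 in the WT libraries and 8194, 7874 and 8789.7 in the CARM1i libraries (log2 fold change 0.50 ± 0.04, adjusted p = 1.94e-07). The iron store gene Fth1 rose by 0.45 ± 0.04 and the glutathione transferase gene Gstm1 by 0.45 ± 0.05, while the transketolase gene Tkt fell by 0.41 ± 0.04. Nqo1, a classical target of the factor, stood at 0.097 ± 0.10 (adjusted p = 0.559). The letters TGACNNNGC, a short form of the antioxidant response element, occur in 7 of 16 of these genes with a window, and in 16.6% of tested genes with one. Of 21 glycolysis and hypoxia genes 5 were higher, with the hexokinase gene Hk2 at 0.45 ± 0.04 and Vegfa at 0.44 ± 0.03, and 2 lower, Txnip and Adm (-0.27 ± 0.07). Without WT replicate 1 Adm was not called (adjusted p = 0.0513). The metallothionein genes Mt1 and Mt2 rose by 0.42 ± 0.05 and 0.35 ± 0.06. They stood in a list of 9 glucocorticoid genes with Hsd11b1, and the glucocorticoid targets Fkbp5 and Tsc22d3 stood at -0.036 ± 0.06 and 0.053 ± 0.06, neither called.

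Fibrillar collagens make up most of the matrix that fibroblasts lay down. Of 17 tested collagen genes 12 fell and none rose, beside 8.59% and 10.5% of all genes. Their median was -0.43, and -0.32 without CARM1i replicate 3. Col1a1 held 22961, 22692 and 23812 in the WT libraries and 17248, 19027 and 14977 in the CARM1i libraries (log2 fold change -0.45 ± 0.06, adjusted p = 6.15e-05). Col3a1 held 6105, 6145 and 5658 in the WT libraries and 4599, 4540.2 and 3746 in the CARM1i libraries (log2 fold change -0.48 ± 0.06, adjusted p = 2.38e-05). CARM1i replicate 3 was the lowest of its group for both, and without it they stood at -0.35 and -0.38. Col5a1 fell by 0.43 ± 0.05, Col8a1 by 0.39 ± 0.04 and the basement membrane gene Col4a5 by 0.43 ± 0.07. The medians of the list by library were -0.32, -0.28 and -0.52 in CARM1i and -0.45, -0.64 and -0.61 in KO.

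Other matrix genes went both ways. Their counts stand beside 10.5% of all genes called higher and 8.59% called lower. The counts called higher among elastic fibre and TGF-beta and YAP genes lie near or below that share. Of 13 proteoglycan and matricellular genes 4 were higher (1 to 5 when 1 library was left out) and 3 lower, with Vcan, versican, at -0.22 ± 0.03. Of 15 metalloproteinases and inhibitors 5 were higher, among them Mmp14 (0.21 ± 0.03), Mmp19 (0.32 ± 0.03) and the inhibitor gene Timp2 (0.19 ± 0.03), and 2 were lower, Mmp9 and Timp3 (-0.51 ± 0.13), a count of 4 without CARM1i replicate 2. Timp3 was not called in DESeq2 (adjusted p = 0.0947) or without the intensity trend of limma (0.128). Of 17 genes of elastic fibres and lysyl oxidases 5 fell (3 without WT replicate 1 or without WT replicate 2), among them Fbn1, fibrillin (-0.30 ± 0.05), and Loxl4 (-0.58 ± 0.12), and 1 was called higher, Emilin1 (0.16 ± 0.04), a call that ended without CARM1i replicate 1 or 2 and without WT replicate 1 or 2 (adjusted p = 0.0557 to 0.074). Of 16 contractile genes 9 fell and none rose (5 fell without WT replicate 2). Acta2, smooth muscle actin, went from 49975, 50132 and 51440 to 42354, 40720 and 38616, and Tpm1 fell by 0.30 ± 0.03. Of 18 TGF-beta and YAP genes 5 fell, with Ccn2, connective tissue growth factor, at -0.47 ± 0.05 and Ccn1 at -0.30 ± 0.04, and 2 were called higher, Tgfb1 (0.34 ± 0.10) and Id2 (0.15 ± 0.05). The call of Tgfb1 ended without CARM1i replicate 1 or 3 and without WT replicate 1 or 2 (adjusted p = 0.0566 to 0.145). That of Id2 ended in edgeR and DESeq2 and in every fit without 1 library except those without CARM1i replicate 2 or KO replicate 2 (0.0525 to 0.206).

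Signalling genes changed one by one. Over all genes 10.5% were called higher and 8.59% lower. The counts of receptors called lower and of axon guidance and adhesion genes called higher lie near these shares. In the Notch list Jag1 fell and Dll1, another ligand, rose by 0.54 ± 0.14, while Notch1 and Rbpj stood at 0.086 ± 0.11 and -0.045 ± 0.04, not called. Of 12 genes of that list 2 were called higher and 2 lower, each 1 to 2 when 1 library was left out. In the Wnt list Wnt4 rose by 0.91 ± 0.21, Ctnnb1, beta-catenin, rose by 0.18 ± 0.03 and the antagonist gene Dkk2 fell by 0.69 ± 0.15. The call of Dkk2 ended without the intensity trend of limma (adjusted p = 0.0764). Over fits without 1 library, the count of the list ran from 2 to 4 higher and from 1 to 3 lower. Of 12 growth factor receptors 2 were higher and 1 lower. Fgfr1 rose by 0.29 ± 0.04 and Egfr fell by 0.55 ± 0.07, and Pdgfra stood at -0.10 ± 0.04 (adjusted p = 0.121). Of 21 axon guidance genes 7 fell, with Robo2 at -0.94 ± 0.20, Sema3c at -0.50 ± 0.04 and Ntn1, netrin, at -0.30 ± 0.04, and 2 were called higher, Slit2 (0.11 ± 0.03) and Plxnd1 (0.28 ± 0.07). The call of Slit2 ended without CARM1i replicate 1 or 2, KO replicate 3 and WT replicate 1 or 2 (adjusted p = 0.0532 to 0.184), and that of Plxnd1 without WT replicate 2 (0.0816). Of 15 adhesion genes 4 fell (2 to 7 when 1 library was left out), with Mcam and the cadherin gene Cdh11 (-0.20 ± 0.04), and 1 was called higher, Itgb3 (0.19 ± 0.06), a call that ended in edgeR and DESeq2, without CARM1i replicate 2 or 3 and without WT replicate 1 or 2 (adjusted p = 0.0578 to 0.146). Of 11 adipogenic genes the lipid droplet genes Plin2 (0.28 ± 0.04) and Plin4 (0.57 ± 0.12) rose, and Pparg stood at 0.31 ± 0.16 (adjusted p = 0.202).

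Genes of proteins that work with CARM1 were also measured. The acetyltransferase genes Crebbp and Ep300 stood at 0.033 ± 0.05 and -0.047 ± 0.06. Of 20 genes of histone acetylation 2 were higher (1 to 2 when 1 library was left out) and 3 lower, close to the 10.5% and 8.59% of all genes, with the deacetylase genes Sirt2 at 0.24 ± 0.04 and Hdac7 at -0.21 ± 0.05 and Hat1, which acetylates new histones, at -0.23 ± 0.06. Of 16 CREB targets and immediate early genes Nr4a1 (0.35 ± 0.07) and Ier3 (0.19 ± 0.04) rose, Dusp1 (-0.29 ± 0.07) fell and Fos stood at 0.12 ± 0.13. The CRE letters TGACGTCA occur in 1 of 12 of these genes with a window and in 3.6% of tested genes. None of 15 chaperones of the endoplasmic reticulum was called in limma (in fits without 1 library, 0 or 1 in each direction), with Hspa5 at -0.057 ± 0.03. Neither edgeR nor DESeq2 called one, and 1 was higher and 3 were lower at an unadjusted p under 0.05. Of 20 ATF4 and amino acid genes 4 were higher, among them Ddit3 (0.26 ± 0.04), and 2 lower (0 to 3 when 1 library was left out). Of 11 heat shock genes Hsph1 rose by 0.30 ± 0.04 and Hspa1b, which has a near-identical copy, stood at -0.41 ± 0.05. The counts of CREB and heat shock genes called in each direction, and of ATF4 genes called lower, lie near the 10.5% and 8.59% of all genes. Of 11 genes of one-carbon metabolism 2 were higher (1 to 2 when 1 library was left out), with Aldh1l1 among them, and 3 lower (2 to 4), among them Mthfd1l (-0.25 ± 0.05). Ribosomal protein genes were lower in 9 of 24 cases by small amounts (median -0.084), a count that ran from 1 to 14 when 1 library was left out. It was 3 in edgeR and 5 in DESeq2.

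**Figure D3:**
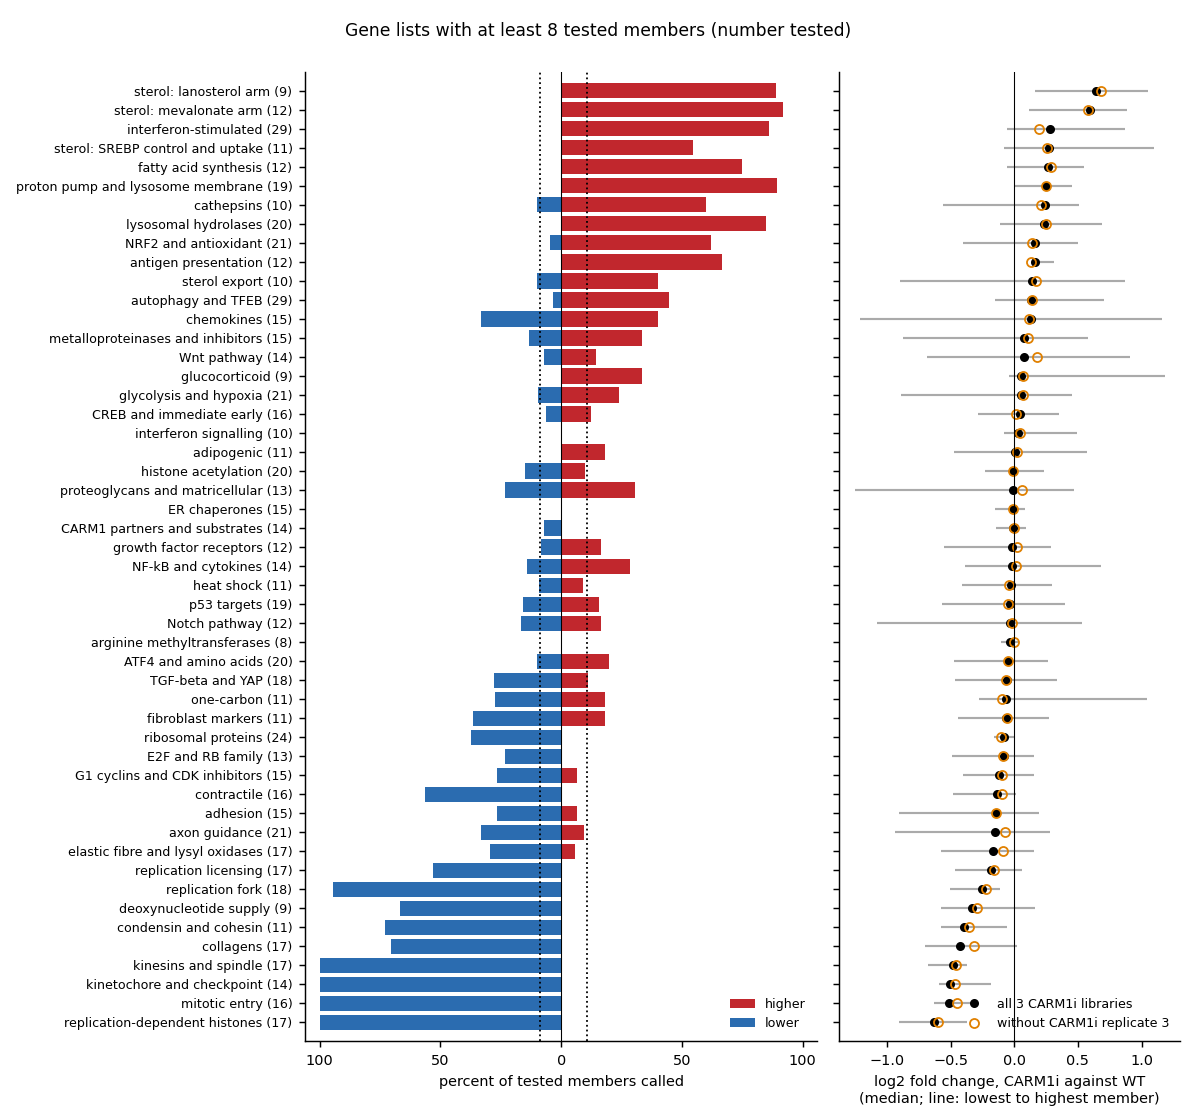
Gene lists with at least 8 tested members, in order of their median change. On the left, bars give the percent of tested members called higher (red, to the right) or lower (blue, to the left), and dotted lines mark the same share over all genes, 10.5% and 8.59%. On the right, filled points give the median log2 fold change, open points the median without CARM1i replicate 3, and grey lines the lowest to the highest member. Both sterol arms lie at the top and the histone and mitotic lists at the bottom.

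Lists with nearly all members called were also counted with the other tools. In edgeR and DESeq2 all mitotic, spindle and kinetochore genes were lower, 16 of 17 histone genes were lower in both, and none of these or of the fork, licensing, collagen and contractile genes was higher. In both tools 11 genes of the mevalonate arm and 8 of the lanosterol arm were higher, 25 and 22 interferon-stimulated genes were higher, and none of these or of the hydrolase and pump genes was lower. Of the hydrolase genes 15, and of the pump genes 15, were higher in each tool. At an unadjusted p under 0.05 in limma these mitotic, histone, fork, licensing, collagen, contractile, sterol arm, interferon-stimulated, hydrolase and pump lists held no gene in the opposite direction.

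**Figure D4:**
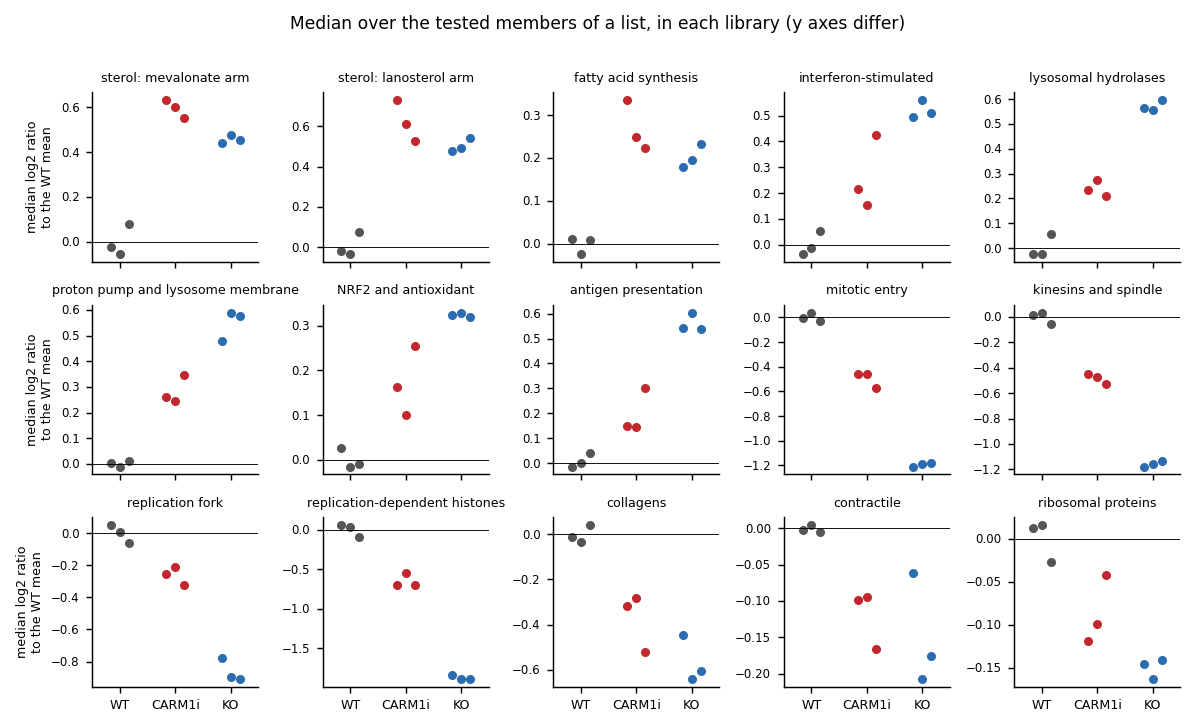
Median log2 ratio to the WT mean over the tested members of 15 lists, in each of the 9 libraries, with y axes that differ between panels. The CARM1i libraries lie above the KO libraries for the mevalonate arm and between WT and KO for the mitotic, replication, histone and lysosomal lists, and CARM1i replicate 3 is the highest of its group for the interferon-stimulated list and the lowest for the collagens.

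Of the 11 tested fibroblast markers 2 were called higher and 4 lower (3 to 4 when 1 library was left out), beside 10.5% and 8.59% of all genes. Of the tested markers of other cell types 4 were called, a share near the 19.1% of all genes. Of the 6 tested myeloid markers Itgb2 rose and 5 were not called in limma: Cd68 (0.24 ± 0.27), Cd14 (-0.12 ± 0.14), Csf1r (0.24 ± 0.21), Mrc1 (0.29 ± 0.22) and Cd74 (0.16 ± 0.41). Csf1r measured 53.4, 51.9 and 78.1 in the WT libraries and 69.9, 77.2 and 66.3 in the CARM1i libraries. Summed over the 6, the level was 349 to 397 in the WT libraries and 456 to 539.7 in the CARM1i libraries. These sums include Itgb2, the only one of the 6 that was called, so they cannot be read as a rise of the whole list. Of the 4 tested endothelial markers Egfl7 was called higher (0.46 ± 0.12), a call that ended without WT replicate 2 (adjusted p = 0.0755), and Kdr (-0.032 ± 0.29) was not. The median of the 4 was -0.057 and the lowest -0.25, and 1 was lower at an unadjusted p under 0.05 in limma. Of the 4 tested neural markers Nes and Ncam1 fell by 0.36 ± 0.08 and 0.31 ± 0.04. None of the 4 tested markers of epithelium, cartilage and bone or skeletal muscle was called in limma, edgeR or DESeq2 or had an unadjusted p under 0.05. Without CARM1i replicate 3 the muscle marker Acta1 was called lower (-0.55, adjusted p = 0.0093). No lymphocyte or erythroid marker was tested. The part of other cells in the interferon and chemokine results was not tested.

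The inhibitor and the deletion were compared directly in the same fit. Of 14560 genes 3436 (23.6%) differed, 1761 higher and 1675 lower in CARM1i than in KO. The comparisons of CARM1i with WT and with KO share the CARM1i libraries, so their values are given side by side only. By the rule the largest differences below KO were those of Acod1, the itaconate-producing enzyme, at 53.7, 38.1 and 114 in CARM1i against 206, 205 and 209.9 in KO and 33.6, 35.2 and 54.5 in WT, and of Nptx1 and Crct1. Acod1 and Nptx1 reached the mean of at least 100 that the rule asks for only through their KO libraries. Their place in a ranking of genes below KO was thus favoured by the filter. Acod1 was called higher than WT only without CARM1i replicate 2 (adjusted p = 0.0187). Aspn, Dkk2 and the histone genes Hist1h2ae, Hist1h1b, Hist1h2bn and Hist1h2bh lay furthest above KO. Mmp3, stromelysin, showed no call against WT (0.0093 ± 0.11) and lay far below KO (-1.13 ± 0.11). Without CARM1i replicate 3 Mmp3 was called lower against WT (-0.20, adjusted p = 0.00157).

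Some genes lay beyond both other groups in CARM1i. With the CARM1i libraries apart from those of both groups and a mean of at least 100, 67 genes were called higher in CARM1i than in WT and in KO, and 58 were called lower than in both. The genes described here were picked, after their values were seen, from the 20 on each side with the largest values for the smaller of both differences. First above both was Add2, a gene of the membrane skeleton, at 348, 366 and 418 in WT, 471, 469.8 and 649 in CARM1i and 344, 414 and 396 in KO. Its log2 fold change against WT was 0.48, and 0.32 (adjusted p = 0.0236) without CARM1i replicate 3. Without the intensity trend of limma Add2 was not called against WT (0.0729). Pmvk, phosphomevalonate kinase, held 329, 289 and 295 in WT, 438, 466 and 433 in CARM1i and 364, 358 and 319.6 in KO. Acsl3, which activates fatty acids, held 1603, 1565 and 1607 in WT, 2199, 2117 and 1956 in CARM1i and 1681, 1696 and 1771 in KO. The sterol and fatty acid genes Hmgcs1, Insig1, Cyp51, Stard4, Elovl6 and Scd2 were also among the 20, as were Nrn1, Tgif2 and Bmper, which belong to neither pathway. The calls of Nrn1 and Tgif2 against WT ended without the intensity trend of limma (adjusted p = 0.0851 and 0.0533). That of Tgif2 also ended without CARM1i replicate 2 (0.0582) and without WT replicate 1 (0.0766). Without CARM1i replicate 3 Nrn1 stood at 0.17 in place of 0.27. The basement membrane genes Frem1 and Nid1 were also above both, Nid1 at 48559, 47492 and 49041 in WT, 54051, 55041 and 58533 in CARM1i and 48617, 47542 and 48692 in KO. Frem1 held 2597, 2576 and 2791 in WT, 3365, 3240.3 and 2977 in CARM1i and 2172, 2009 and 1888 in KO, so that the KO libraries lay below WT and the CARM1i libraries above it.

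First below both was F2rl1, a protease-activated receptor gene. F2rl1 held 147, 131 and 149 in WT, 84.0, 100.1 and 88.7 in CARM1i and 159, 155 and 146 in KO. Fas, the death receptor, held 274, 319 and 371 in WT, 229.8, 215 and 199 in CARM1i and 291, 324 and 261 in KO. Tnfaip3, which ends NF-kB signalling, held 986, 1092 and 1160.1 in WT, 789, 859.6 and 874 in CARM1i and 1128, 1097 and 1078 in KO. In each of these the WT and KO libraries lay near each other and the CARM1i libraries below both. Loxl4, a lysyl oxidase, and Actg2, the enteric smooth muscle actin, followed the same order, with Loxl4 at 222, 279 and 227 in WT, 144, 161 and 181 in CARM1i and 236, 199 and 200.3 in KO. The activin subunit gene Inhba stood at -0.29 ± 0.05 against WT and -0.31 ± 0.05 against KO.

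**Figure D5:**
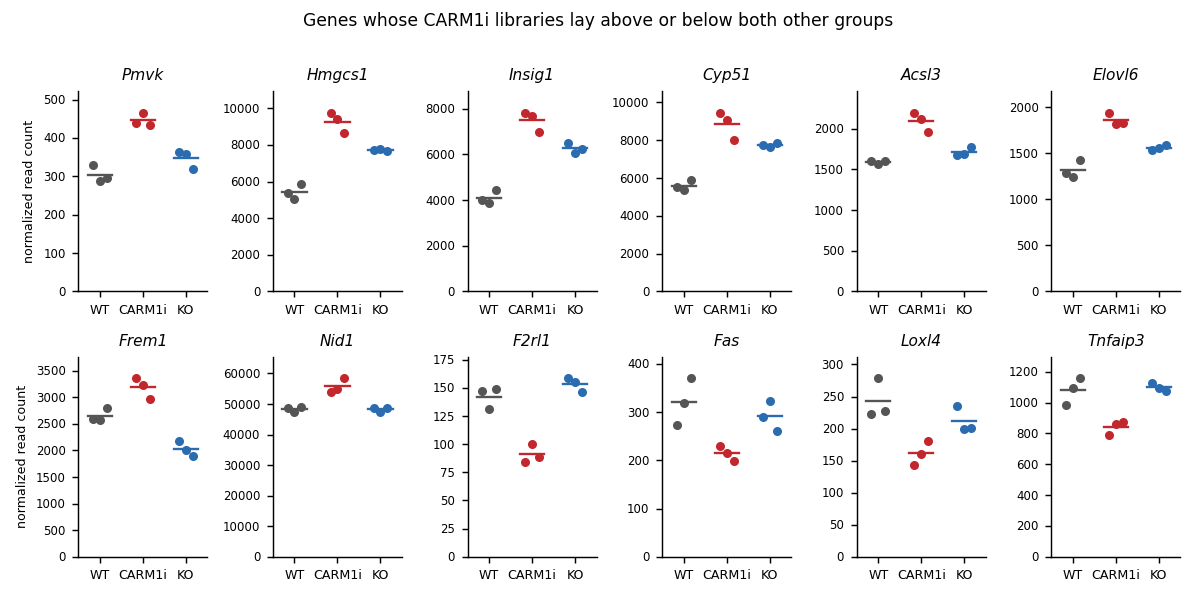
Normalized read counts in every library (points) and group means (lines) of 12 genes whose CARM1i libraries lay beyond both other groups, with each y axis starting at 0. In the first 8 panels every CARM1i library is above every WT and KO library, and in the last 4 every one is below them.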

How the data were processed

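RNA of 9 mouse embryonic fibroblast libraries was purified with RNeasy columns and sequenced from a TruSeq stranded mRNA kit, per the labels' protocols. Per the submitters' processing notes, the tools were TopHat2 2.0.10, HTSeq 0.6.0 and DESeq 1.18.0 on the build mm10. Which annotation release was used, and whether counting took strand into account, is not given in the sources used here, so reads of overlapping and antisense genes may not be separated. The deposited values are read counts per gene that the authors divided by a size factor for each library, a signal that is not whole. Multiplied by size factors recovered from the steps between low values, 100% of them gave whole reads (tolerance 1e-06). Each gene in the table reached at least 10 reads in some library.

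Genes with a mean of at least 10 over the 9 libraries were tested with limma 3.58.1 (trend on the mean level; R 4.3.3), taking log2(value + 1), a scale that understates the changes of low genes. All 3 groups shared 1 estimate of spread, and the threshold was 0.05 after Benjamini-Hochberg adjustment over all genes tested. "Called", "rose" and "fell" refer to this test. On the recovered reads of the 6 libraries compared, edgeR 4.0.16 (quasi-likelihood, TMM) called 1290 genes higher and 1115 lower, and DESeq2 1.42.0 called 1234 and 992. The procedure was tested on simulated data. Symbols and positions are from GENCODE M21: 15078 IDs matched in full, 16413 once the version was dropped and 15 in neither way. Promoter windows are from RefSeq, on GRCm38.p6.

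The members and gene lists were chosen with earlier results of these data known. By the rule for naming, the text names Carm1, the 15 largest rises and falls among called genes with groups apart and a mean of at least 100, up to 5 called members of each list by adjusted p with its first 3 members, the 6 called genes of highest mean, and the 6 largest differences each way from KO. Genes on the Y chromosome, Xist and predicted models were left out. Acsl3, Add2, Adm, Arsb, Bmper, Cdkn1a, Ebp, Eda2r, F2rl1, Frem1, Ggps1, Id2, Ids, Inhba, Irf1, Manba, Nid1, Notch1, Nqo1, Nrn1, Plxnd1, Pmvk, Rbpj, Slit2, Smc1a, Tfe3, Tfeb, Tgif2, Timp3, Tsc22d3 and Wipi1 fall outside it and were chosen after their values were seen. Some genes that the rule names are not reported here. Each library was counted as 1 sample. No pair of replicates agreed within sampling noise (chi-square per gene 2.63 to 9.99), but this does not show that they came from separate cultures or animals. Alternatives were other filters, pseudocounts, scalings, thresholds and tests, only the compared groups, a replicate block and leaving out each library.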

Additional observations from a re-analysis of the deposited data

How the results depend on the processing

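The counts of genes called higher and lower in CARM1i against WT (1533 and 1251) and of genes that differed from KO (3436) stayed within 1.5 times of these under both other filters on the mean, both other pseudocounts, both rescalings, the fit of the compared groups alone and, run against WT only, edgeR and DESeq2. They moved further without the intensity trend of limma, to 1018 higher and 779 lower, and 29 of the named genes lost their call there. They also moved with an adjusted p under 0.01, to 1003, 665 and 2155, and with a change of at least 1.5-fold required, to 130, 151 and 522, both stricter by construction. When 1 library was left out, genes lower ran from 805 to 1208, and the lowest count, without WT replicate 2, was the only one beyond 1.5 times. The cause of the differences between fits was not tested. Rescaling to a common total gave 1346 higher and 1510 lower. Mmp3 was the only named gene to change sign as a call, to -0.20 without CARM1i replicate 3, and it ran from there to 0.12 when 1 library was left out.

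The replicate numbers did not pair the libraries. The deviations of same-numbered CARM1i and WT libraries correlated at -0.06, -0.005 and -0.197 over genes, and no library correlated best with the one of its own number. With a replicate block 1430 genes were higher, 1123 lower and 3156 different from KO.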
